A study of Mus musculus with 16 samples.

Results

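The Sphk2, Gm15441, 0610040F04Rik and Hsd11b1 rows are 4 of the 47517 rows of gene counts measured in cortical bone of mouse tibiae. They were picked by the gene on the other DNA strand and by how their counts moved with loading or genotype in these same libraries. Their values in the comparisons are therefore a description, and no p-value is given for them. Sphk2 lies opposite the clock gene Dbp and the ribosomal protein gene Rpl18, Gm15441 opposite Txnip, and 0610040F04Rik opposite the clock repressor gene Bhlhe40. None of the 4 rows is named for a clock gene, and Hsd11b1 alone is named for a gene of glucocorticoid metabolism, so the rows are called by their own names.

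The study asked how switching on NF-kB inducing kinase (NIK) in bone-forming cells changes bone before and after mechanical loading. Bone was taken from 8 male mice aged 16 weeks. The 4 groups were the loaded right tibiae of 4 mice labelled NT3-Cre+ (NT3 from here on), the non-loaded left tibiae of the same NT3 mice, and the loaded right and non-loaded left tibiae of 4 mice labelled Ctrl. Loading was axial compression for 9 days at 1200 cycles a day, with 10.0 N in NT3 and 8.7 N in Ctrl, chosen for a strain of -2000 microstrain in both, and bones were collected 4 hours after the last bout. All groups shared isoflurane anaesthesia and 1 of 2 forms of the opioid buprenorphine, stripping of muscle and flushing of marrow. The mean RNA integrity number was 5.4. The allele and Cre driver behind NT3-Cre+, the genotype of Ctrl, and the hour of the day of collection are not given in the sources used here. Because the force differed between genotypes, a genotype difference after loading cannot be told apart from a difference in applied force.

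Circadian clocks run on a loop in which CLOCK and BMAL1 switch on genes that include their own repressors. DBP is a transcription factor made under direct control of that pair, and BHLHE40 (DEC1) is a repressor that competes with them for the same DNA. Glucocorticoids are released with a daily rhythm, and HSD11B1, an enzyme of the endoplasmic reticulum, regenerates the active hormone from its inert form inside cells. In bone, excess glucocorticoid is known to hold back osteoblasts. TXNIP is an arrestin-like protein that binds thioredoxin and is switched on by glucose and by glucocorticoids. SPHK2 is a lipid kinase that makes sphingosine 1-phosphate.

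Each library held between 758394 and 1064391 counted fragments, which limits precision for low rows: NT3 loaded libraries had 758394 to 911686, NT3 non-loaded 775531 to 961382, Ctrl loaded 852831 to 1064391 and Ctrl non-loaded 897909 to 998031. Most abundant rows shared exonic bases with a gene transcribed the other way. This held for 1093 of the 1242 matched rows averaging at least 100 fragments (88%), against 6811 of the other 44619 rows (15.3%). How counting used strand is not stated, and a value may therefore come from the gene of the row's name or from the gene opposite. A low or flat row by name therefore does not show that the mRNA of that gene was low or flat. The 15 osteoblast marker rows by name were summed as counts per 1000000 fragments (CPM, scaled by the trimmed mean of M-values, TMM). In NT3 they summed to 792 to 1028 in loaded and 554 to 712 in non-loaded tibiae. In Ctrl the sums were 819 to 1265 in loaded and 339 to 643 in non-loaded tibiae. These sums do not tell bone from other tissue. The 16 skeletal muscle rows by name summed to 367.5 to 647.6, 417.5 to 807.9, 349.3 to 676.5 and 394 to 667.2 CPM in these groups in the same order.

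All 4 rows are annotated on the minus strand of GRCm38 (GENCODE M21). Sphk2 spans chr7:45709467-45718002 with 8 exon blocks, and its last exon meets the last exon of Dbp tail to tail over 539 bases, 213 coding and 326 untranslated in Dbp, which is 12.96% of the Sphk2 exons. At its other end Sphk2 shares 373 exonic bases, all untranslated in the Rpl18 models, with Rpl18. Gm15441, a spliced antisense RNA gene at chr3:96555765-96566801, covers Txnip whole. It shares 606 bases with Txnip exons, 327 of them coding, which is 36.2% of the Gm15441 exons and 19.4% of the Txnip exons. 0610040F04Rik, another antisense RNA gene at chr6:108577039-108660934, meets Bhlhe40 head to head. Only 118 of its 2150 exonic bases lie over a Bhlhe40 exon (5.49%). Hsd11b1 at chr1:193221634-193264075 has 10 exon blocks and no exon on the other strand, although the whole gene lies inside the body of Lamb3, a laminin subunit gene.

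**Figure D1:**
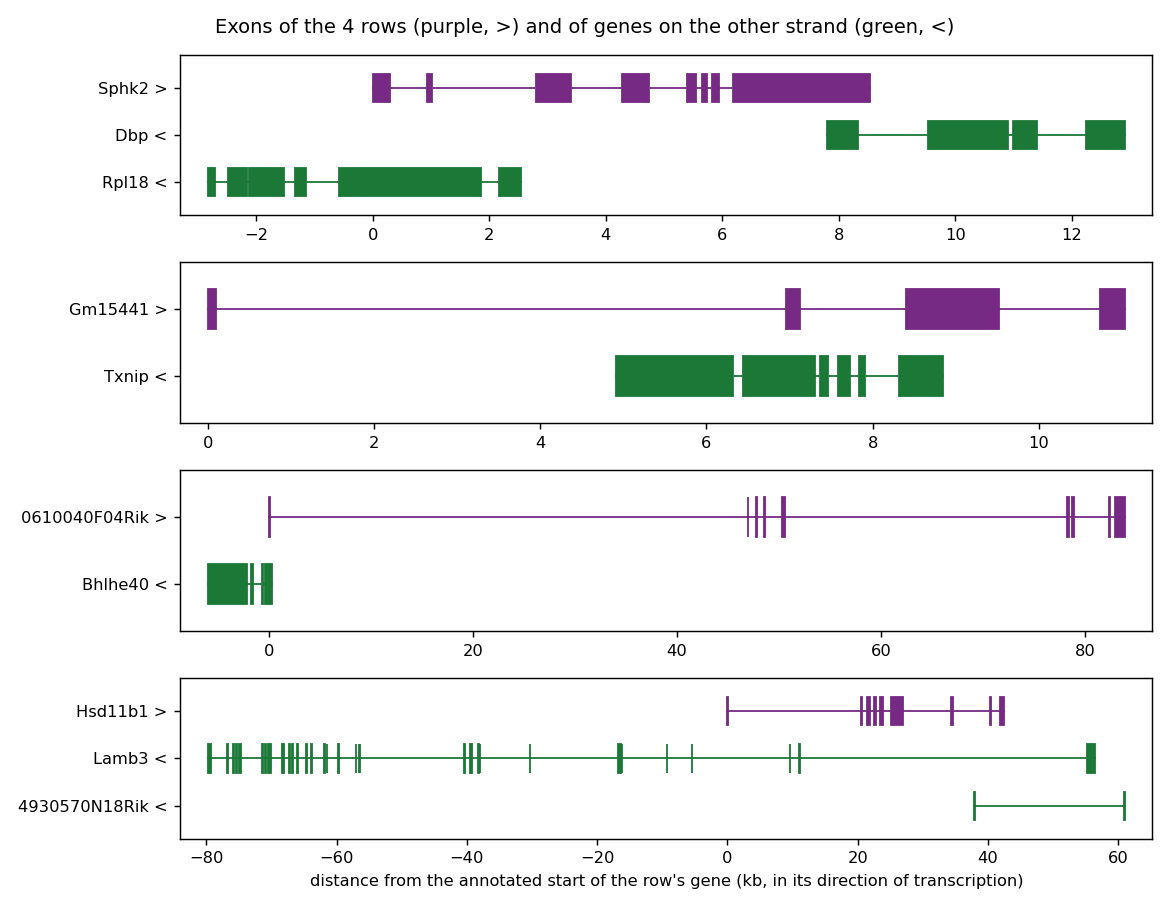
Exons of the 4 rows (purple, transcribed left to right) and of genes on the other strand (green, transcribed right to left), as distance in kb from the annotated start of the row's gene. Sphk2 meets Dbp at its end and Rpl18 at its start, Gm15441 covers Txnip, 0610040F04Rik meets Bhlhe40 at its start, and the exons of Hsd11b1 fall between those of Lamb3.

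RefSeq promoter windows (250 bases before to 50 bases after a start site, GRCm38.p6) were found for 6 of the 8 genes looked up. The window of Txnip is shown because all 300 of its bases lie within Gm15441 exons, so the Txnip promoter and Gm15441 share the same bases on opposite strands. The 250 bases before the start site read 5′ to 3′ on the plus strand at chr3:96557707-96557956.
Txnip: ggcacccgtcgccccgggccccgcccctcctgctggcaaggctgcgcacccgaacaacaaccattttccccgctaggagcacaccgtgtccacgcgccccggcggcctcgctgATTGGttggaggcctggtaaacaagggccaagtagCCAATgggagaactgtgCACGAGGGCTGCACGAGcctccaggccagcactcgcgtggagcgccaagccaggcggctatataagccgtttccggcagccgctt
Capitals mark CCAAT boxes (CCAAT, or ATTGG on the other strand) and the paired carbohydrate response element. The search for that element used CACGAG followed, after any 5 bases, by CACGAG again, on both strands, letters which were taken from what is known of Txnip, so the match is no finding. It begins 85 bases before the start site, and 1 of 32851 RefSeq windows holds it (0.00304%). CCAAT boxes were in 37.4% of windows. The E-box of CLOCK and BMAL1 (CACGTG, in 7.15% of windows), the D-box of DBP (TTATGTAA, 0.938%) and a glucocorticoid response element (AGAACA, any 3 bases, then TGTTCT, 0.00913%), searched on both strands, were not among the letters of this window.

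Averaged over both genotypes, the loaded tibia had less Sphk2 (log2 -0.42, SE 0.09), less Gm15441 (-0.43, SE 0.08) and less Hsd11b1 (-0.68, SE 0.21) than the non-loaded tibia of the same mouse. 0610040F04Rik stood higher in NT3 than in Ctrl before loading, and Hsd11b1 higher in NT3 than in Ctrl after loading. In edgeR fits across all rows, 2 of the 4 rows passed adjusted p 0.05 for loading in NT3, Sphk2 and Gm15441, where 0.417% of 7192 tested rows passed. For loading in Ctrl, 2 of the 4 passed, Gm15441 and Hsd11b1, against 4.07% of 7192 rows. For the mean loading effect of both genotypes, 3 passed, Sphk2, Gm15441 and Hsd11b1, against 4.39%. Between genotypes, 1 of the 4 passed in non-loaded tibiae, 0610040F04Rik, against 0.579% of 6220 rows, and 1 passed in loaded tibiae, Hsd11b1, against 2.65% of 6080 rows. The difference between the loading effects of the genotypes passed for 0 of the 4, against 0.139% of 7192 rows. DESeq2 gave no adjusted p for Hsd11b1 in that difference, its log2 value being 1.12 there, and passed none of the other 3 rows. All 4 rows were tested in every comparison, and because they were picked for these patterns, nothing is read from their counts against the background.

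**Figure D2:**
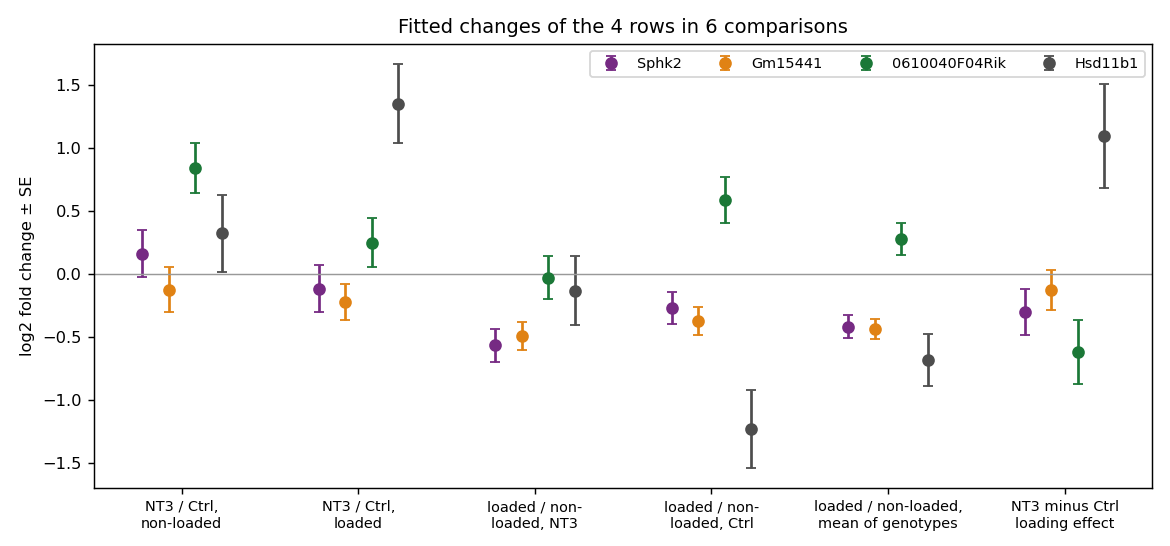
Fitted log2 fold change of each row with its standard error (SE) in the 6 comparisons, from NT3 over Ctrl at the left to the difference of loading effects at the right. Sphk2 and Gm15441 lie below 0 for loading in both genotypes, and the largest changes are those of Hsd11b1, 1.36 for NT3 over Ctrl in loaded tibiae and -1.23 for loading in Ctrl.

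Sphk2 was lower in the loaded than in the non-loaded tibia of 7 of 8 mice. In NT3 mice 1 to 4 the loaded tibiae had 174, 144, 255 and 179 CPM, against 247, 222, 365 and 278 CPM in the non-loaded tibiae. Every NT3 mouse moved down by a like amount, 0.50 to 0.63 on the log2 scale, although the limbs as groups overlapped because mouse 3 was high in both. In Ctrl mice 1 to 4 the loaded tibiae had 150, 209, 169 and 288 CPM, against 235, 201, 193 and 353 CPM in the non-loaded tibiae. Ctrl mouse 2 was flat, and mouse 4 was high in both limbs. The fitted log2 change with loading was -0.56 (SE 0.13) in NT3, a 1.48-fold lower level, and -0.27 (SE 0.13) in Ctrl. The difference of these effects was -0.30 (SE 0.18). NT3 differed from Ctrl by 0.17 (SE 0.19) in non-loaded and -0.11 (SE 0.19) in loaded tibiae. The call for loading in NT3 was lost without any 1 of the 4 NT3 mice, while the value stayed between -0.59 and -0.55.

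The Dbp row, named for the clock factor, was low and nearly flat. It held 16 to 33 fragments per library, with 29.8 ± 9.52 CPM in NT3 loaded, 27.4 ± 2.79 in NT3 non-loaded, 28.6 ± 5.78 in Ctrl loaded and 27.7 ± 5.25 in Ctrl non-loaded tibiae (mean ± SD, n = 4). Its fitted change with loading was 0.09 (SE 0.29) in NT3 and 0.05 (SE 0.29) in Ctrl, neither of which passed (edgeR adjusted p = 0.988 and 0.967). These SEs compare with 0.13 for Sphk2 in the same fit. Whether the fragments of either row came from Dbp is not known, so a change of Dbp mRNA can be neither shown nor denied here. The Rpl18 row held 0 to 5 fragments and was removed by the low-count filter.

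Gm15441 was the most abundant of the 4, and lower in the loaded tibia of all 8 mice. In NT3 mice 1 to 4 it had 2284, 2029, 2234 and 1504 CPM in loaded tibiae, against 3589, 2494, 2921 and 2350 CPM in non-loaded tibiae. The NT3 limbs did not overlap. In Ctrl mice 1 to 4 it had 2345, 2229, 2497 and 2304 CPM in loaded tibiae, against 3849, 2385, 3247 and 2805 CPM in non-loaded tibiae. The Ctrl limbs overlapped, since the non-loaded tibia of mouse 2 sat below the loaded tibia of mouse 3. Loaded Ctrl tibiae were close together, 2344 ± 113 CPM, while non-loaded Ctrl tibiae spread over 3072 ± 626 CPM (SD, n = 4). The fitted log2 change with loading was -0.49 (SE 0.11) in NT3 and -0.37 (SE 0.11) in Ctrl, and the difference of these was -0.12 (SE 0.16). NT3 differed from Ctrl by -0.12 (SE 0.18) in non-loaded and -0.22 (SE 0.14) in loaded tibiae.

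The Txnip row itself held 0 to 6 fragments per library in the same bones, so nearly all fragments counted at this locus were in the antisense row. Whether they came from Gm15441 or from Txnip is not known, since use of strand in counting is not stated. The levels given here are therefore those of the row, not of an antisense RNA. Per kb of exon, Gm15441 had 1201 ± 213 FPKM (CPM per kb of exon) in NT3 loaded and 1694 ± 332 in NT3 non-loaded tibiae, and 1398 ± 67.3 in Ctrl loaded and 1833 ± 374 in Ctrl non-loaded tibiae (SD, n = 4). On the same per-length scale Sphk2 lay at 46.0, 68.0, 49.8 and 60.0 FPKM in these groups in the same order, 0610040F04Rik at 54.6, 54.9, 45.9 and 30.4, and Hsd11b1 at 10.9, 12.5, 4.24 and 9.86. Gm15441 was thus far above the others in every group, and Hsd11b1 below them. 0610040F04Rik lay above Sphk2 in NT3 loaded tibiae and below it in the other groups, by less than the SD of Sphk2 except in Ctrl non-loaded tibiae.

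The mean of the marrow marker rows, those of the granulocyte, erythroid and B lymphoid lists, moved with loading in the same direction as Sphk2 and Gm15441. Single rows differed. By row name, Mmp8, Alas2 and Cd72 passed as higher with loading in Ctrl and 1 B lymphoid row as lower. By the gene opposite, 2 granulocyte, 1 erythroid and 3 B lymphoid rows passed as lower in Ctrl. For loading in NT3, 0 rows of these lists passed (edgeR, adjusted p under 0.05). The mean of 19 marrow marker rows was 6.20 to 6.44 log2 CPM in NT3 loaded, 6.25 to 6.52 in NT3 non-loaded, 5.96 to 6.04 in Ctrl loaded and 6.05 to 6.53 in Ctrl non-loaded tibiae, and was lower in the loaded tibia of 7 of 8 mice. With that mean as a covariate, the loading change of Gm15441 was -0.42 in NT3 and -0.068 in Ctrl, and that of Sphk2 was -0.50 in NT3 and -0.02 in Ctrl. None of these 4 values passed the threshold in that fit. In Ctrl mice the marker mean did not overlap between limbs, so it is hard to tell apart from loading there. Its part in the values of Gm15441 and Sphk2 was not tested. The Gm15441 call in NT3 was also lost without NT3 mouse 1, 3 or 4, with values of -0.57 to -0.44 when any 1 mouse was left out, and its Ctrl call was lost under 11 of 13 alternatives, with values of -0.46 to -0.25 when any 1 mouse was left out. In bulk bone, fewer cells of a type and less RNA per cell cannot be told apart.

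0610040F04Rik was higher in NT3 than in Ctrl tibiae that had not been loaded. In NT3 mice 1 to 4 the non-loaded tibiae had 119, 124, 137 and 91.4 CPM, against 83.6, 58.3, 52.4 and 66.7 CPM in Ctrl mice 1 to 4. These groups did not overlap, and the fitted log2 fold change was 0.84 (SE 0.20), a 1.80-fold higher level in NT3. In loaded tibiae NT3 had 107, 159, 121 and 81.6 CPM, against 80.6, 77.3, 108 and 129 CPM in Ctrl. The loaded groups overlapped, and NT3 over Ctrl was 0.25 (SE 0.20). The fitted loading change was -0.02 (SE 0.17) in NT3 and 0.59 (SE 0.18) in Ctrl, where the row was higher in the loaded tibia of 3 of 4 mice. The difference of these loading effects was -0.62 (SE 0.25) and did not pass. The genotype call in non-loaded tibiae was lost without NT3 mouse 1, 2 or 3 or Ctrl mouse 2, 3 or 4, with values from 0.75 to 1.01. The Ctrl loading change, in turn, passed the threshold without Ctrl mouse 1 or NT3 mouse 4.

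The Bhlhe40 row held 0 to 11 fragments per library, so the clock repressor could not be followed by the row of its name. Some rows of B cell markers were also higher in NT3. By the gene opposite, the median NT3 over Ctrl log2 value of B lymphoid rows was 0.71 in non-loaded and 1.46 in loaded tibiae. For 0610040F04Rik it was 0.84 and 0.25. By row name, Cd72 was, like 0610040F04Rik, higher in NT3 mainly before loading, at 0.62 (SE 0.15) and -0.06 (SE 0.14). Its loading change was -0.06 in NT3 and 0.61 in Ctrl, beside -0.02 and 0.59 for 0610040F04Rik. The other rows tested by name, Cd79a and Cr2, were at -0.08 and -0.08 in non-loaded and 0.26 and 0.19 in loaded tibiae. By the gene opposite, 2 of 4 tested B lymphoid rows rose in NT3 non-loaded tibiae and 4 of 4 rose in NT3 loaded tibiae (edgeR, adjusted p under 0.05). The 6 rows summed to 416 to 678 CPM in NT3 loaded, 448 to 698 in NT3 non-loaded, 160 to 218 in Ctrl loaded and 199 to 380 in Ctrl non-loaded tibiae, and 0 of the 6 were at 0 in all 16 libraries. By row name, the 15 B lymphoid rows summed to 351 to 405, 407 to 456, 351 to 426 and 305 to 364 CPM in these groups in the same order, and 1 of 3 tested rose in NT3 non-loaded tibiae, Cd72. Their part in the values of 0610040F04Rik was not tested. With the marrow covariate, NT3 over Ctrl was 0.83 in non-loaded and -0.60 in loaded tibiae, neither past the threshold. That covariate includes Cd72, and in loaded tibiae it did not overlap between genotypes, so it is hard to tell apart from genotype there.

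Hsd11b1 was higher in NT3 than in Ctrl tibiae after loading. The loaded tibiae had 46.9, 32.4, 60.0 and 46.8 CPM in NT3 mice 1 to 4, against 28.8, 20.04, 10.2 and 13.1 CPM in Ctrl mice 1 to 4. The groups did not overlap, the nearest values being NT3 mouse 2 and Ctrl mouse 1. The fitted log2 fold change was 1.36 (SE 0.31), or 2.56-fold. Non-loaded tibiae had 22.2, 54.5, 63.7 and 72.9 CPM in NT3 mice, against 34.3, 47.1, 27.2 and 58.9 CPM in Ctrl mice. These overlapped, with NT3 over Ctrl at 0.33 (SE 0.31). NT3 mouse 1 had the lowest value of the 8 non-loaded tibiae.

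In Ctrl mice the Hsd11b1 row was lower in the loaded tibia of 4 of 4 mice, with a fitted log2 change of -1.23 (SE 0.31), a 2.34-fold lower level. The log2 change was -0.25 in mouse 1 and -2.12 in mouse 4, so the mice differed widely. In NT3 mice the fitted change was -0.13 (SE 0.27), 3 of 4 mice being lower and mouse 1 higher by 1.06 in the loaded tibia. The difference of the loading effects was 1.10 (SE 0.41) in the edgeR fit. The row rested on few fragments, 24 to 47 in NT3 loaded, 21 to 71 in NT3 non-loaded, 8 to 25 in Ctrl loaded and 26 to 60 in Ctrl non-loaded tibiae. The genotype call in loaded tibiae was lost without NT3 mouse 3, at values of 1.18 to 1.66 without any 1 mouse, and the Ctrl loading call was lost without Ctrl mouse 2 or 4, at -1.60 to -0.89. The Hsd11b1 call for the mean loading effect, -0.68 (SE 0.21), was lost under 9 of 13 alternatives.

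**Figure D3:**
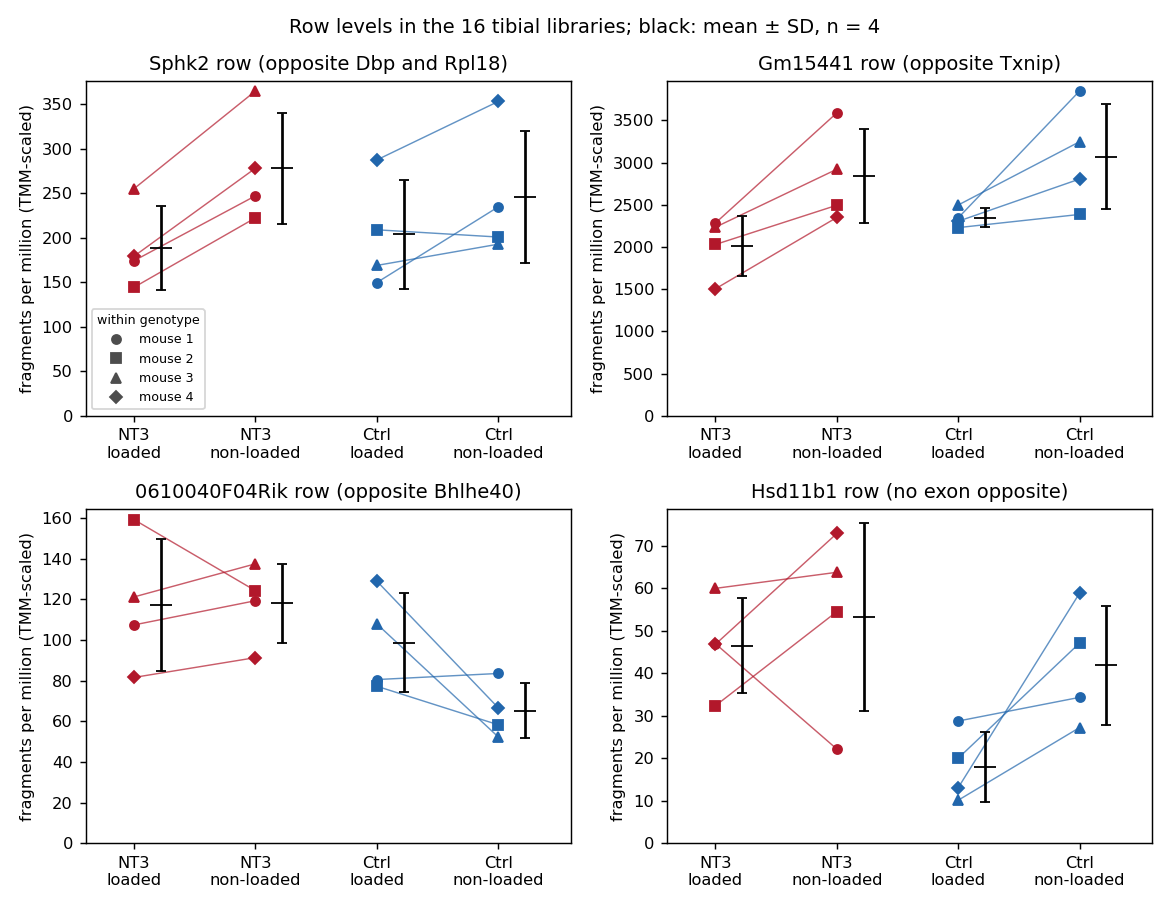
TMM-scaled CPM of each row in the 16 libraries, with each mouse's limbs joined by a line and its own symbol, and black bars for the mean ± SD of 4 libraries. Gm15441 is lower in the loaded limb of each mouse, the non-loaded NT3 tibiae lie above the non-loaded Ctrl tibiae for 0610040F04Rik, and the loaded NT3 tibiae lie above the loaded Ctrl tibiae for Hsd11b1.

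Gm38118, an unconfirmed gene model on the same strand inside the Hsd11b1 span that shares no exonic base with it, held 1 to 21 fragments per library. It had 14.5 ± 11.6 CPM in NT3 loaded, 12.6 ± 0.76 in NT3 non-loaded, 6.59 ± 5.23 in Ctrl loaded and 10.6 ± 3.62 in Ctrl non-loaded tibiae (SD, n = 4). Its mean was lowest in Ctrl loaded tibiae, as for Hsd11b1, though the loaded groups overlapped, and its part in the Hsd11b1 values was not tested. Lamb3, whose body encloses it, held 0 to 7 fragments per library, and G0s2, an inhibitor of fat breakdown that lies 8086 bases away on the same strand, held 0 to 5. Adipocyte rows, listed because fat cells are rich in HSD11B1, summed by name to 107 to 122 CPM in NT3 loaded, 105 to 169 in NT3 non-loaded, 108 to 159 in Ctrl loaded and 105 to 174 in Ctrl non-loaded tibiae. Of the 14 adipocyte rows, 2 were tested by name, 0 passed by edgeR or had an unadjusted p under 0.05 in any comparison, and 0 were at 0 in all 16 libraries. DESeq2 also passed 0, but gave no adjusted p to either for loading in NT3 and to 1 for the difference. The 1 adipocyte row by the gene opposite, 4732471J01Rik (opposite Lipe, a lipase of fat cells), did not pass by edgeR or DESeq2. It had an unadjusted edgeR p under 0.05 for loading in NT3 (log2 -0.39, SE 0.15) and for the mean loading effect (-0.30, SE 0.11). The B lymphoid sums by the gene opposite, given above, were also higher in loaded NT3 than in loaded Ctrl tibiae, while those by row name overlapped. Their part in the Hsd11b1 values was not tested. With the marrow covariate the Hsd11b1 changes were 1.58 for NT3 over Ctrl in loaded tibiae and -1.29 for loading in Ctrl, as large as without it but no longer past the threshold. The covariate did not overlap between the groups of either comparison, which limits what those fits can tell.

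The 4 rows differed in where their spread lay. Among 4114 rows averaging at least 20 fragments, the median spread between mice was 0.23 (SD of mouse means around their genotype mean, log2 CPM) and the median spread of the limb difference within mice was 0.39. Sphk2 varied widely between mice, 0.35, with 84.1% of rows lower, and little in its limb difference, 0.21, with 11.6% of rows lower. Gm15441 was near the median between mice, 0.22, and also tight in its limb difference, 0.22. 0610040F04Rik was near the median in both, 0.26 and 0.40. Hsd11b1 was high in both, 0.43 between mice and 0.80 within, with 92.9% and 95.0% of rows lower. The rows were picked partly by their loading pattern, and a tight limb difference favours a call, so these ranks are a description only. Nor were the rows compared matched for depth, on which spread depends. Pearson r between any pair of the 4 rows over the 16 libraries ran from -0.14 to 0.38. After removal of the group means it ran from -0.49, for Gm15441 with Hsd11b1, to 0.49, for Gm15441 with 0610040F04Rik. These values describe libraries that share groups and mice.

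The rows most like each of the 4 were looked up as the 5 highest Pearson r in log2 CPM over the 16 libraries, among 4113 rows, with r after removal of the group means beside it. For Gm15441 they were Plpp1 (0.87, then 0.84), Gm10197 opposite Mxi1 (0.87, then 0.74), Gm26648 opposite Nub1 (0.86, then 0.83), Sp3os opposite Sp3 (0.84, then 0.90) and Gm14820 opposite Suv39h1 (0.83, then 0.75). Plpp1 itself lies opposite Mtrex, so each of these 5 rows, like Gm15441, shares exonic bases with a gene opposite. The same held for the 5 rows most like Sphk2 and for those most like 0610040F04Rik. It also held for 88% of matched rows averaging at least 100 fragments and for 15.3% of the others. The 5 rows most like Sphk2 averaged 23.6 to 73 fragments. The share among rows averaging at least 20 fragments was not taken, so nothing is read from these exons opposite. For Sphk2 the 5 values were lower, 0.69 to 0.75, led by Frmd8 (0.75, then 0.66). For 0610040F04Rik the leader was Cd72, named for a B cell receptor and opposite the kinase gene Tesk1 (0.85, then 0.69), and the others were 0.79 to 0.83.

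For Hsd11b1 the 5 rows were Gm15356 (0.89, then 0.86), Clec2g (0.89, then 0.81), Fndc9 (0.89, then 0.73), Fam196b (0.87, then 0.68) and Gm15674 (0.86, then 0.64). Of these 5, 4 have no exon opposite, and 3 lie whole inside the body of a gene on the other strand, as Hsd11b1 lies inside Lamb3. An exon opposite was found for 88% of matched rows averaging at least 100 fragments and 15.3% of the others. The share of all rows inside such a body was not taken, so nothing is read from these counts. Gm15356 lies inside March1, Fndc9 inside Cyfip2 and Fam196b inside Dock2, which encodes a leukocyte activator of the GTPase RAC. These r values rest on libraries that share depth, group and mouse.

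Rows named for other clock genes were mostly too low to test. By row name, 7 or 8 of 21 core clock rows were tested in a comparison, and Nr1d1, which encodes the repressor REV-ERB alpha, alone passed. It was lower in NT3 than in Ctrl loaded tibiae, with 70.9 ± 8.64 against 119 ± 8.74 CPM (SD, n = 4), log2 -0.74 (SE 0.18, edgeR adjusted p = 0.0156). In non-loaded tibiae it had 86.9 ± 8.04 in NT3 and 131 ± 9.44 CPM in Ctrl, log2 -0.60 (SE 0.17, adjusted p = 0.147). The NT3 and Ctrl libraries did not overlap in either limb, and the call in loaded tibiae was lost without NT3 mouse 2 or Ctrl mouse 2. The share of all tested rows whose groups do not overlap was not taken. Nothing is therefore read from a lack of overlap, here or for the 4 rows. The Nr1d1 row lies opposite the thyroid hormone receptor gene Thra. Clock had 185 ± 29.7 CPM in NT3 loaded, 185 ± 12.1 in NT3 non-loaded, 211 ± 18.7 in Ctrl loaded and 188 ± 11.96 in Ctrl non-loaded tibiae, and did not pass (largest log2 change -0.18, SE 0.14, edgeR adjusted p = 0.676).

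By the gene opposite, 8 or 9 of 9 core clock rows were tested. Beside 0610040F04Rik, 1 passed, Gm26847, opposite the clock-linked replication gene Timeless and the lens channel gene Mip. It had 13.8 ± 4.82 CPM in Ctrl loaded and 29 ± 7.82 CPM in Ctrl non-loaded tibiae, log2 -1.08 (SE 0.32, edgeR adjusted p = 0.0453), and 28.1 ± 1.41 in NT3 loaded and 21.8 ± 6.85 in NT3 non-loaded tibiae, log2 0.40 (SE 0.31, adjusted p = 0.864). That call was lost without NT3 mouse 3 or any 1 of the 4 Ctrl mice. Rows opposite the casein kinase genes, Gm16059 (Csnk1e) and Gm28192 (Csnk1d), did not pass. Thra, opposite Nr1d1, did not pass either, at -0.60 (SE 0.21) for loading in Ctrl and -0.48 (SE 0.23) for NT3 over Ctrl in non-loaded tibiae. Leaving out 0610040F04Rik, 4 rows had an unadjusted edgeR p under 0.05 for loading in Ctrl, where 1061 of 7192 tested rows did. For NT3 over Ctrl in non-loaded tibiae 2 did, where 486 of 6220 did. Of the clock output list of DBP relatives and targets, 4 or 5 of 11 rows were tested by name. By edgeR 0 passed, with 1 at unadjusted p under 0.05 for NT3 over Ctrl in loaded tibiae and 0 elsewhere, and by DESeq2 0 passed, although it gave no adjusted p to any of the 5 for loading in NT3 and to 4 of 5 for the difference. The list had a median loading change of 0.09 in NT3 and 0.06 in Ctrl, beside 0.00 and -0.03 over all tested rows. By the gene opposite, only Sphk2 of 2 tested rows passed; the other, Chid1, opposite the tetraspanin gene Tspan4, did not.

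Hsd11b1 was the 1 row of its own pathway that passed. Of 15 rows of glucocorticoid metabolism and receptors, 5 or 6 were tested by name, and Hsd11b2, Nr3c1, Nr3c2, Hsp90aa1 and Hsp90ab1 did not pass in any comparison. Hsd11b2, whose enzyme inactivates the hormone that HSD11B1 restores, had 27.7 ± 10.1 CPM in NT3 loaded, 24.7 ± 5.06 in NT3 non-loaded, 25.9 ± 10.4 in Ctrl loaded and 25.8 ± 3.30 in Ctrl non-loaded tibiae. Its NT3 over Ctrl log2 value in loaded tibiae was 0.08 (SE 0.34). Of 21 genes known to be induced by glucocorticoids, 4 to 6 were tested by name and 2 by the gene opposite. By edgeR 0 passed in any comparison, with at most 1 row per comparison and list at unadjusted p under 0.05. By DESeq2 0 passed where it gave an adjusted p, which it did for none of these rows for loading in NT3 and for 1 of 6 by name for the difference. Their median change with loading by name was -0.13 in NT3 and 0.05 in Ctrl. The median difference of the loading effects was -0.54 by name and -0.42 by the gene opposite, beside 0.01 over all tested rows. By name the median of NT3 over Ctrl was 0.11 in non-loaded and -0.20 in loaded tibiae.

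Around Sphk2, 13 to 15 of 32 rows of sphingolipid metabolism were tested by name. Sgpp2, whose phosphatase removes the phosphate that SPHK2 adds, was higher in NT3 than in Ctrl loaded tibiae, with 91.7 ± 18.8 against 51.7 ± 8.03 CPM, log2 0.83 (SE 0.21, edgeR adjusted p = 0.0218). Sgpp2 lies opposite Farsb, and its call was lost without NT3 mouse 3 or 4 or Ctrl mouse 2, 3 or 4. Sphk1, which encodes the other sphingosine kinase, and Smpd2, the most abundant row of the list, did not pass. By the gene opposite, Prmt7, opposite the osteoblast sphingomyelinase gene Smpd3, rose with loading in both genotypes, by 1.79 in NT3 (SE 0.14, edgeR adjusted p = 1.11e-12) and 2.67 in Ctrl (SE 0.14, adjusted p = 4.03e-19). The Smpd3 row itself did not pass, at 0.14 (SE 0.29) for loading in NT3 and 0.19 (SE 0.30) in Ctrl. Prmt7 had 462 ± 215 CPM in NT3 loaded and 137 ± 73.3 in NT3 non-loaded tibiae, and 627 ± 94.3 in Ctrl loaded and 99.5 ± 27.8 in Ctrl non-loaded tibiae. Its loading effect was smaller in NT3 than in Ctrl by 0.88 (SE 0.20, adjusted p = 0.0459), a call lost without NT3 mouse 2 or 4 or Ctrl mouse 1, 2 or 3. Mybbp1a, opposite the sphingosine 1-phosphate exporter gene Spns2, rose with loading in Ctrl, by 0.46 (SE 0.14, adjusted p = 0.0436), a call lost without Ctrl mouse 1 or 3 or NT3 mouse 1, 2 or 3. Of the thioredoxin and arrestin list, Gm15441 was the 1 row that passed, among 3 or 4 tested by name and 5 or 6 by the gene opposite.

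**Figure D4:**
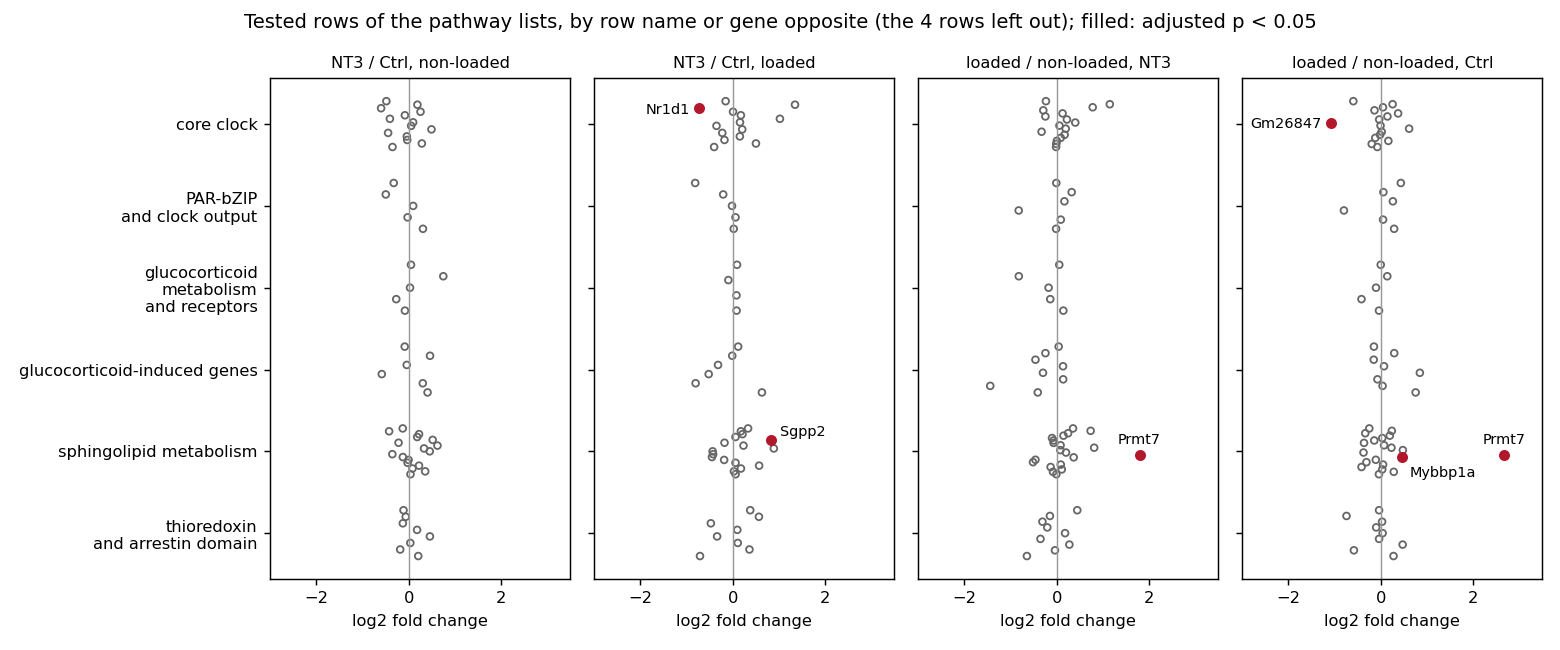
Fitted log2 fold change of each tested row of the 6 pathway lists, by row name or by gene opposite, in 4 comparisons, with the 4 rows themselves left out and rows at adjusted p under 0.05 filled and named. Most rows lie near 0. Nr1d1 is lower and Sgpp2 higher in NT3 loaded tibiae, Gm26847 is lower and Mybbp1a higher with loading in Ctrl, and Prmt7 is higher with loading in both genotypes.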

How the data were processed

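Gene counts of 16 tibial libraries (4 NT3 and 4 Ctrl mice, both limbs) were analysed as the authors deposited them. The submitters' processing notes name STAR 2.4.2a, Subread featureCounts 1.4.6, DESeq2 and the mm10 build. The deposited files also give a length per gene, used for FPKM. The annotation release used and whether counting used strand are not given in the sources used here. Rows were placed by symbol on GENCODE M21: 45250 matched, and 611 by an older symbol. A row lies opposite a gene where exons on the other strand overlap.

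The 4 rows and the gene lists were chosen with earlier results of these data known. Low rows were removed (filterByExpr, minimum count 10). TMM-scaled counts went into robust quasi-likelihood F tests of edgeR 4.0.16 (limma 3.58.1, R 4.3.3), with Benjamini-Hochberg adjustment over all tested rows and a call at adjusted p under 0.05. Genotype fits used 8 libraries. Loading fits used all 16 with a replicate block for mouse. The design text pairs the limbs; deviations from group means correlated at 0.06 to 0.316 within mice, and only for Ctrl mouse 4 did another mouse correlate better (0.166). Log2 CPM used a pseudocount of 0.5 fragments. Named rows were the 4 rows, the genes opposite them, every called row and up to 4 of the highest mean count in each pathway list, and the 5 rows of highest r with each of the 4. The test was checked on simulated data. Alternatives were DESeq2 1.42.0, its size factors, no filter, other samples in the fit, no block, a covariate of marrow marker rows, and leaving out each mouse. Mice were separate animals, numbered within genotype.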

Additional observations from a re-analysis of the deposited data

How the results depend on the processing

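The 9 called values of the 4 rows kept their sign under each of the 13 alternatives run for their comparison. The calls lost when 1 mouse was left out stand with each row in the results. The marrow covariate ended all 9 calls, and fitting without the replicate block ended those of Sphk2 and Gm15441 for loading in NT3, Gm15441 for loading in Ctrl, and Sphk2 and Hsd11b1 for the mean loading effect. Values that were not called changed sign for Gm15441 (non-loaded genotype), Sphk2 and 0610040F04Rik (loaded genotype), and 0610040F04Rik and Hsd11b1 (loading in NT3). Leaving out 1 mouse at a time, the number of rows passing ran from 12 to 77 for NT3 over Ctrl in non-loaded tibiae, beside 36 with all mice, from 17 to 44 for loading in NT3, beside 30, and from 163 to 325 for loading in Ctrl, beside 293. With no filter on low counts, 71 rows passed for NT3 over Ctrl in non-loaded tibiae and 17 for the difference of loading effects, beside 10. With the DESeq2 test, 19 passed for loading in NT3, 169 for loading in Ctrl and 197 for the mean loading effect, beside 316. Without the replicate block that pairs the limbs of a mouse, these counts were 5, 171 and 205, and 0 for the difference of loading effects by edgeR, with 335 rows there at unadjusted p under 0.05, while DESeq2 with the block gave 10. With the mean of the marrow marker rows as a covariate, 38 rows passed for NT3 over Ctrl in loaded tibiae, beside 161, 54 for loading in Ctrl, 59 for the mean loading effect and 19 for the difference. Under that covariate Gm15441 was at -0.49 for NT3 over Ctrl in loaded tibiae, -0.068 for loading in Ctrl and -0.35 for the difference, 0610040F04Rik was at -0.60 for NT3 over Ctrl in loaded tibiae, and Mybbp1a reversed to -0.066 for loading in Ctrl. The cause was not tested. In loaded tibiae the marker mean did not overlap between genotypes, and in Ctrl mice it did not overlap between limbs. Its part is therefore hard to tell apart from genotype or loading in those comparisons. The alternatives for Nr1d1, Sgpp2, Gm26847, Prmt7 and Mybbp1a were chosen after seeing the data. That covariate also ended the calls of Nr1d1, Sgpp2 and Gm26847 and of Prmt7 for the difference, and DESeq2 and the fit without the block each ended those of Gm26847, of Mybbp1a for loading in Ctrl and of Prmt7 for the difference. The fit without the block also ended that of Prmt7 for loading in NT3, and no filter those of Gm26847 and Mybbp1a for loading in Ctrl. The covariate and leaving out Ctrl mouse 1 ended that of Mybbp1a for the mean loading effect. Depth limits Hsd11b1, at 8 to 71 fragments per library, and the rows of Txnip, Bhlhe40 and Rpl18 most.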

Other observations

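Among the markers of cells that cortical bone can hold, osteoblast rows rose with loading. By row name, 4 of 9 tested osteoblast rows rose in Ctrl and 1 of 9 in NT3, and by the gene opposite 2 of 3 rose in each genotype (edgeR, adjusted p under 0.05). Those by the gene opposite were Abi3, opposite Phospho1, and Prmt7, the same row as in the sphingolipid list. The 3 rows by the gene opposite summed to 2100 to 4048 CPM in NT3 loaded and 888 to 1759 in NT3 non-loaded tibiae, and to 3668 to 5619 in Ctrl loaded and 705 to 1294 in Ctrl non-loaded tibiae. Of the granulocyte rows by the gene opposite, 2 of 3 fell with loading in Ctrl, and 0 of 3 passed in NT3 by edgeR or DESeq2, with 1 at unadjusted p under 0.05. By row name 1 of 5 granulocyte rows, Mmp8, named for a collagenase, rose with loading in Ctrl. Skeletal muscle rows by the gene opposite ranged widely within groups, from 1299 to 5041 CPM in NT3 loaded, 2856 to 15880 in NT3 non-loaded, 1522 to 15390 in Ctrl loaded and 2042 to 12600 in Ctrl non-loaded tibiae, and 0 of 8 tested passed, or had an unadjusted p under 0.05, in any comparison by edgeR, and 0 passed by DESeq2, which gave no adjusted p to 1 of them in 3 comparisons.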
